A study of Homo sapiens with 12 samples.

Results

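The genes described here are 10 TNF receptors and regulators of cell death, read out through the histone mark at their starts and in the surrounding 50 kb. They were chosen by name for their role, with earlier results of these data known, from 20033 protein-coding genes of the annotation. They are the receptors TNFRSF1A, TNFRSF1B, FAS, TNFRSF10A and TNFRSF10B, the adaptors TRAF1 and TRAF2, and the inhibitors BIRC2, BIRC3 and CFLAR. H3K27ac, acetylation of lysine 27 of histone H3 at active promoters and enhancers, was profiled by CUT&RUN in HCT116, an established colorectal cancer cell line. The assay tethers a nuclease to an antibody on the mark, so that DNA cut free around marked nucleosomes is what gets sequenced. The labels list 12 libraries, and the 6 with the H3K27ac antibody were used: 2 untreated, 2 after 1 μM cobimetinib (an inhibitor of the kinase MEK1) for 24 hours and 2 after TNFα at 100 ng/mL for 24 hours. The 6 matching libraries with a nonspecific immunoglobulin G are not analysed here. All groups share the same cell line and medium, and the untreated libraries are not described as having received solvent. The study's methods describe the libraries as made from replicates of the treatment. They do not state that these were separate cultures, so the tests measure only the spread between these libraries.

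TNFα binds TNFRSF1A, the receptor on most cell types, and TNFRSF1B. The bound receptor gathers TRAF2 and the ubiquitin ligases BIRC2 and BIRC3, from which signals run to NF-κB and to kinases that activate AP1; when this platform fails, the same receptor can start cell death through CASP8. FAS and the TRAIL receptors TNFRSF10A and TNFRSF10B start death more directly, CFLAR blocks CASP8 at these receptors, and BIRC3, TRAF1 and CFLAR are textbook targets of NF-κB.

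The deposited files are lists of peaks with a score, and read depth is unknown. Peaks were therefore ranked by score within each list, with rank 1 at the top and tied peaks sharing their mean rank. The lists held from 69813 to 124771 peaks. Untreated replicate 2, whose peak names say that it was merged after resequencing, stood apart: its list was the longest, its median peak width was 190 bp against 278 to 365 bp in the other 5 libraries, and the median promoter peak ranked 26242 there against 10656 to 13319 elsewhere. Promoter differences and widths of members that rest on it are given with and without it. Differences of the wider pathway genes and of single regions against untreated are given only with it.

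The 3 stretches printed first are shown because their genes had the largest differences between TNFα and untreated (TNFRSF10B, whose difference exceeded that of TRAF2, is not printed), and because the promoters can be read against the 2 transcription factors that this signalling activates. Each is the 250 bases before the main start, the MANE Select start, 5′ to 3′ on the strand of the gene in hg38. The BIRC3 stretch (chr11:102317234-102317483, plus strand) and the TRAF2 stretch (chr9:136886266-136886515, plus strand) are from RefSeq and identical in hg38, and the TRAF1 stretch (chr9:120926797-120927046, minus strand) was read from hg38, since RefSeq lists the other TRAF1 start. Capitals mark matches on either strand to the 10-base NF-κB consensus or to the AP1 word TGACTCA, which do not overlap one another here.
BIRC3: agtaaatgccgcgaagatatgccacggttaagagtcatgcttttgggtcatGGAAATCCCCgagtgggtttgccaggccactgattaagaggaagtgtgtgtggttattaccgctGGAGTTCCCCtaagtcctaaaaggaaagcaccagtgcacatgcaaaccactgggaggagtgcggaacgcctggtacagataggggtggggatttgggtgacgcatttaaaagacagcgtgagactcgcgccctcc
TRAF1: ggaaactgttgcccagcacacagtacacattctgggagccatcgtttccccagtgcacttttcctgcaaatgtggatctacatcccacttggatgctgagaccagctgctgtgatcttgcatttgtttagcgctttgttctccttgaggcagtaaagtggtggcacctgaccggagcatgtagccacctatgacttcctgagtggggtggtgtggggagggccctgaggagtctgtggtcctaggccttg
TRAF2: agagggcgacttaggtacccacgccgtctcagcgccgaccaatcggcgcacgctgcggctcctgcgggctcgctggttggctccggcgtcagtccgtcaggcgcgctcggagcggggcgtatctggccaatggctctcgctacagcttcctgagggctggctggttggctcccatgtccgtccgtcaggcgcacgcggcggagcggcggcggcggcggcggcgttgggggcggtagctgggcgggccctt

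BIRC3 held 2 NF-κB words in these 250 bases, and TRAF1 and TRAF2 held none of either word. In RefSeq promoters of 300 bases (250 before and 50 after the start), the NF-κB consensus stood in 6.35% and the AP1 word in 3.68% of 15345 protein-coding genes. Of the 8 members in that table, BIRC3 held 2 NF-κB words and CFLAR 1, and none held the AP1 word. A match is a description of the letters, not evidence of binding.

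The TRAF1 words lay on the other side of the start. The region marked after TNFα (described below) held 1 word of each kind, shown here as 30 bases on the strand of the gene.
TRAF1 NF-κB word, chr9:120926549-120926578: ccaacaccctGGGGATTTCCaccaggaagg
TRAF1 AP1 word, chr9:120926220-120926249: ccatccctgctgTGACTCAgctgtgacgtt

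Of the 10 members 8 had a peak within 1 kb of at least 1 annotated start in all 6 libraries. TRAF1 had one in 4 libraries and TNFRSF1B, the TNFα receptor of immune and endothelial cells, in none. Over all protein-coding genes 51.9% had a peak in all 6 libraries. Ranks by library follow for each member, first for the receptors, then the adaptors and the inhibitors.

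TNFRSF1A, the main TNFα receptor, sat low in every list. Its best promoter peak ranked 24005 and 29057.5 in untreated, 19810.5 and 40971 in cobimetinib and 27025.5 and 34882 in TNFα cells. The 3 groups overlapped.

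FAS, the receptor of the Fas ligand, was as low and more scattered. It ranked 35737 and 34024.5 in untreated, 46385.5 and 36157 in cobimetinib and 15717.5 and 44788.5 in TNFα cells. The TNFα replicates lay far apart, one nearer the top than all other libraries and one next to the lowest, and the peak chosen lay 616 to 1354 bp downstream of the main start in 4 of the libraries.

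TNFRSF10A, a TRAIL receptor, ranked 5337 and 12386 in untreated, 6819.5 and 9115.5 in cobimetinib and 2930 and 10686.5 in TNFα cells, and these ranks overlapped between all groups. Its neighbour TNFRSF10B, the other death-inducing TRAIL receptor, ranked 8689.5 and 9918.5 in untreated, 6909 and 8847 in cobimetinib and 15233 and 30493.5 in TNFα cells. Both TNFα libraries lay below the other 4, also at the main start alone, where the second TNFα library ranked 34882.

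The adaptor TRAF2 ranked 7729 and 9374 in untreated, 11141.5 and 19222.5 in cobimetinib and 3708.5 and 4173.5 in TNFα cells, so that the 3 groups did not overlap. In 5 libraries this peak lay at an internal start, 14185 to 16376 bp downstream of the main one. At the main start TRAF2 ranked 14579.5 and 109255 in untreated, 26561 and 19222.5 in cobimetinib and 10372.5 and 10686.5 in TNFα cells; TNFα was again above the rest, but cobimetinib now lay between the untreated replicates.

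TRAF1, an adaptor that binds TRAF2, was marked at different starts in different libraries. Around its main start a peak was called only in the TNFα libraries, at ranks 14093 and 18781 and with widths of 604 and 718 bp. The untreated library with a TRAF1 peak (rank 62079) and the cobimetinib library with one (rank 36157) had it upstream at the other start, spanning -2531 to -2104 and -2380 to -2190 bp from the main one. Of 19061 MANE starts, 21 (0.11%) had a peak in both TNFα libraries and in none of the other 4, and TRAF1 was the 1 member among them. The same pattern stood at 24 starts (0.126%) for untreated and at 64 (0.336%) for cobimetinib, with no member among them.

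The ubiquitin ligase gene BIRC2 ranked 6857 and 39474.5 in untreated, 3371.5 and 2700.5 in cobimetinib and 8288 and 7008.5 in TNFα cells. Both cobimetinib libraries stood above all others. Its neighbour BIRC3, an inhibitor of apoptosis with the same ligase role, ranked 8488 and 42366 in untreated, 2475 and 5690 in cobimetinib and 2986 and 3099 in TNFα cells, and all 4 treated libraries stood above both untreated ones. In untreated replicate 2 the BIRC3 peak was 326 bp wide and lay upstream, from -659 to -334 bp, whereas in the other 5 libraries it covered the start.

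CFLAR, the inhibitor of CASP8, stood highest at one of its starts. It ranked 689.5 and 377.5 in untreated, 1378 and 693 in cobimetinib and 478.5 and 350 in TNFα cells, through a peak at an internal start 32154 to 35835 bp downstream of the main one. At the main start it ranked 9871 and 5822.5 in untreated, 2230 and 3648.5 in cobimetinib and 6291 and 5254.5 in TNFα cells. Cobimetinib thus came last at the internal start and first at the main start. Every rank of the internal CFLAR start was nearer the top than any rank of another member. At its main start CFLAR overlapped BIRC2, BIRC3, TNFRSF10A, TNFRSF10B and TRAF2. TNFRSF1A and FAS overlapped each other and were the lowest of the members marked in every library, except in untreated replicate 2, where BIRC2 and BIRC3 ranked lower.

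**Figure D1:**
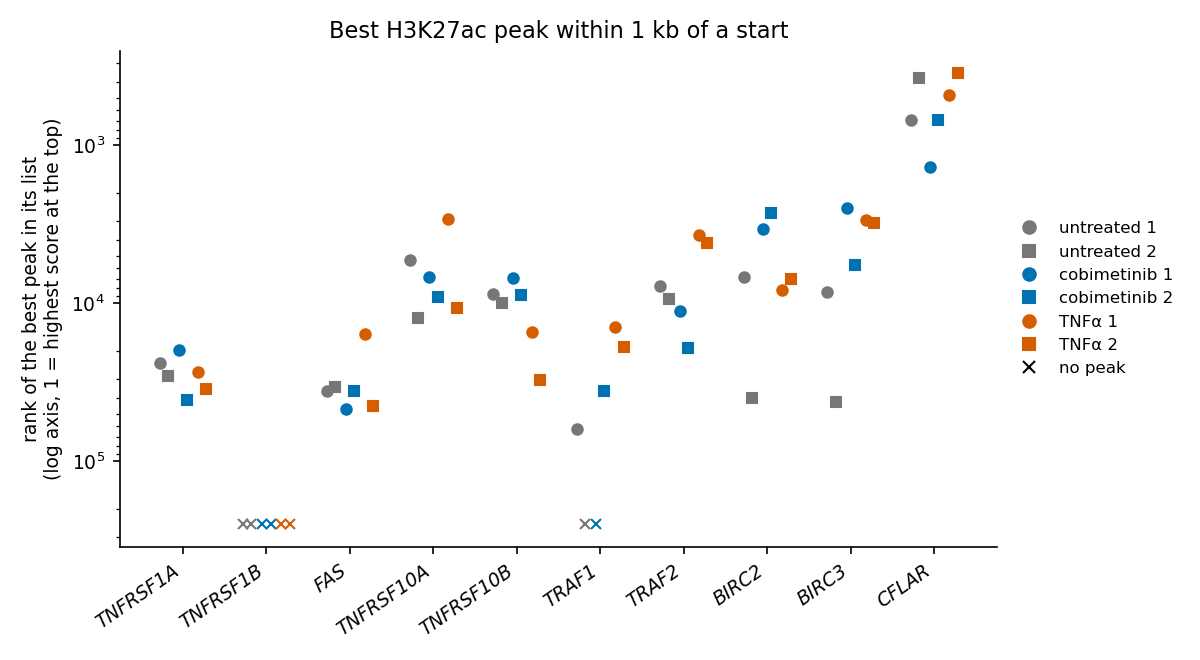
Rank of the best peak within 1 kb of any start for each member (log axis, top of the list upwards), one point per library: circles are replicate 1, squares replicate 2. Crosses mark libraries without a peak and sit at an arbitrary height; TNFRSF1B had none, and CFLAR lay between rank 350 and 1378.

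For tests, ranks were put on a log2 scale with the sign turned, centred on the median promoter of the library, and fitted with limma over 13544 promoters with a peak in at least 2 libraries. A difference of 1 is then a 2-fold smaller rank number, and positive values mean nearer the top in the first group named. A library without a peak was set to the end of its list, which for the members touched only TRAF1. Before centring the median difference over all promoters was 0.36 for cobimetinib against untreated, 0.13 for TNFα against untreated and -0.24 for TNFα against cobimetinib, and after it -0.17, -0.26 and -0.10. Of the 10 members 9 could be tested, and none passed an adjusted p of 0.05 in any comparison (limma, Benjamini-Hochberg over all promoters). Among all promoters the share passing was 0.0% for cobimetinib against untreated, 0.0% for TNFα against untreated and 0.0148% for TNFα against cobimetinib, so a count of 0 members is what the whole table shows too. The members' standard errors of 0.77 to 0.84 are the size of most of their differences.

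TNFα against untreated asked what the ligand changed at its own signalling genes. BIRC3 (2.26 ± 0.78, SE) and TRAF1 (2.05 ± 0.78) stood nearer the top after TNFα, each with a limma adjusted p of 0.782, and TRAF2 (0.73 ± 0.77) and BIRC2 (0.73 ± 0.77) differed by less than their error. TNFRSF10B stood farther from the top (-1.60 ± 0.78, limma adjusted p = 0.782). TNFRSF1A (-0.60), FAS (0.01), TNFRSF10A (0.16) and CFLAR (-0.06) lay within 1 SE of 0. At an unadjusted p under 0.05 were 2 of the 9, against 6.14% of promoters. After centring, the groups did not overlap with TNFα nearer the top in 3 members (11.6% of promoters) and with TNFα farther in 1 (22.1%). The members' median was 0.16 and that of all promoters tested -0.26.

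Part of the BIRC3 difference rested on untreated replicate 2: without it the value was 1.73 (limma adjusted p = 0.788), and with it as the only untreated library 3.03 (0.0288). In that last fit 8.51% of all promoters passed. Without untreated replicate 2 TNFRSF10B came to -1.06, TRAF2 to 1.22, BIRC2 to 0.10 and CFLAR to 1.00. The TRAF1 difference was 2.17 and 2.18 without the first and the second untreated replicate. It came to 1.13 with scores of 40 or more and to 0.63 with ranks counted among the promoters tested. For TNFα against cobimetinib these settings gave 1.37 and 0.61 at TRAF1. The TRAF1 sizes depend on where a missing peak is placed.

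Cobimetinib against untreated asked what MEK inhibition changed. BIRC2 (1.92 ± 0.77, limma adjusted p = 0.449) and BIRC3 (1.81 ± 0.78, 0.479) stood nearer the top after cobimetinib, and TRAF2 (-1.31 ± 0.77) and CFLAR (-1.46 ± 0.84) farther. The 4 receptors tested lay between -0.76 and -0.28, each within 1 SE of 0, and TRAF1 at -0.02. At an unadjusted p under 0.05 were 2 members, against 9.48% of promoters. After centring, groups did not overlap with cobimetinib nearer the top in 2 members, BIRC2 and BIRC3 (15.8% of promoters). They did not overlap with cobimetinib farther in 2, TRAF2 and TNFRSF10A (20.8%). These calls depend on centring: before it TNFRSF10A overlapped, and FAS and CFLAR did not. The members' median was -0.48 and that of all promoters tested -0.17. Without untreated replicate 2 BIRC2 came to 1.30 and BIRC3 to 1.29 (limma adjusted p = 0.666 and 0.692), and TRAF2 to -0.81 and CFLAR to -0.39. Without untreated replicate 1 they came to 2.80 and 2.59 (0.0272 and 0.0427), in a fit in which 10.9% of all promoters passed.
At the main start alone TRAF2 and CFLAR changed sign, to 0.25 and 0.84.

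The comparison of TNFα with cobimetinib uses the untreated libraries for the common estimate of the spread. They also count in the filter on libraries with a peak, and so in which promoters set the centring. TRAF1 (2.08 ± 0.78) and TRAF2 (2.04 ± 0.77) stood nearer the top after TNFα, each with a limma adjusted p of 0.575, and CFLAR came to 1.40 ± 0.84. BIRC2 (-1.19 ± 0.77) and TNFRSF10B (-1.32 ± 0.78) were nearer the top after cobimetinib. BIRC3 (0.45), FAS (0.77), TNFRSF10A (0.64) and TNFRSF1A (0.04) lay within 1 SE of 0. At an unadjusted p under 0.05 were 2 members, against 6.98% of promoters. After centring, groups did not overlap with TNFα nearer the top in 3 members (18.3% of promoters) and farther in 2 (24.4%). The members' median was 0.64, and that of all promoters tested -0.10. At the main start alone CFLAR came to -0.88 and TRAF2 to 1.24. The comparisons share libraries and are not independent of one another.

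**Figure D2:**
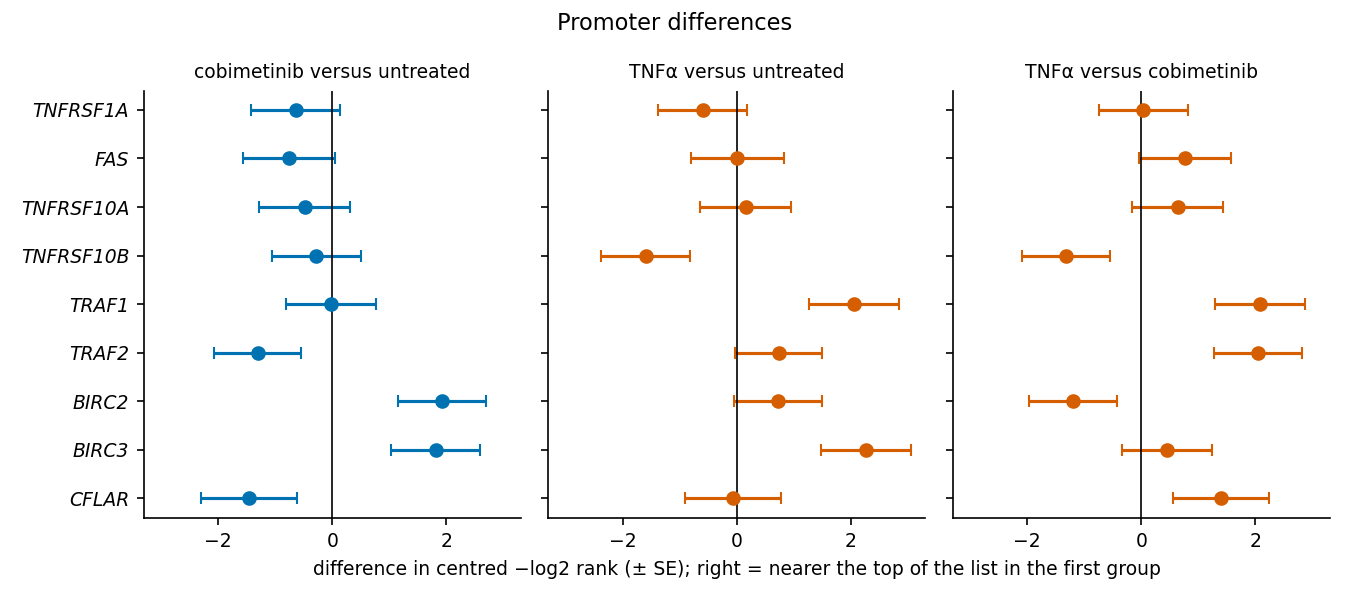
Difference in centred, sign-turned log2 rank for the 9 members tested (horizontal axis) in the 3 comparisons, with bars of 1 standard error. TRAF1 and BIRC3 lie at about 2 in TNFα against untreated, BIRC2 and BIRC3 near 2 in cobimetinib against untreated, and no difference passed the adjusted threshold.

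The wider pathway was read from a list of 32 further genes: ligands, other receptors, kinases, ubiquitin enzymes and caspases. A promoter peak stood in all 6 libraries at 22 of them. The ligand genes TNF, LTA, FASLG and TNFSF10 and the necroptosis kinase gene RIPK3 had none in any library, and TNFRSF10C and TRAF5 had one in 1 library. Of the 25 tested none passed in any comparison, and their medians were -0.02 for cobimetinib against untreated, -0.15 for TNFα against untreated and 0.01 for TNFα against cobimetinib.

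The largest differences on that list were mostly downward. LTBR, the lymphotoxin-β receptor, whose start lies within 50 kb of TNFRSF1A, was farther from the top after cobimetinib (-2.37, limma adjusted p = 0.355) and after TNFα (-2.12, 0.782) than in untreated cells. FADD, the adaptor of death receptors, came to -1.69 ± 0.85 after cobimetinib, and OTULIN, a deubiquitinase, to -2.07 ± 0.80 after TNFα. Upward against untreated, the kinase gene RIPK1 came to 1.14 ± 0.75 and TAB2 to 0.96 ± 0.85 after cobimetinib. After TNFα, SHARPIN came to 1.13 ± 1.00 and RIPK1 to 0.65 ± 0.75, the latter within 1 SE of 0. The groups overlapped at TAB2 and SHARPIN. These values against untreated are not given without untreated replicate 2. Between TNFα and cobimetinib the kinase gene MAP3K7 (-2.10 ± 0.79) and CASP8 (-1.71 ± 0.77) lay lowest, and CASP9 (1.37 ± 0.76) and BID (0.96 ± 0.75) highest.

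Peak widths gave a second readout of the same promoters, which shares the peak calls with the ranks. The median width of the members' best peaks was 1335 and 514 bp in untreated, 1032.5 and 1091 bp in cobimetinib and 1468 and 1415 bp in TNFα libraries. Over all promoters tested the medians were 1335 and 417, 982 and 1024, and 1053 and 882 bp. The members' median equalled that of all promoters in untreated replicate 1 and was wider in the other 5 libraries.

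The members' median ratio of widths was 1.54 for TNFα against untreated, where the median gene had 1.17, and 1.5 for TNFα against cobimetinib, where it had 0.946. For cobimetinib against untreated it was 1.18 beside 1.23. On the log2 scale the first 2 of these come to 0.62 and 0.59, about as large as the SD between replicates of 0.56, and no test was made. Without untreated replicate 2, whose peaks are narrow, the log2 difference was 0.35 for TNFα against untreated and -0.38 for cobimetinib against untreated, the latter 0.24 with it. BIRC2 (2.82 times), TRAF2 (2.77 times) and BIRC3 (2.44 times) had the largest ratios of TNFα to untreated widths. Against untreated replicate 1 alone these fell to 1.57, 1.52 and 1.27 times, and against untreated replicate 2 alone they were 5.05, 5.05 and 4.65 times. For TNFRSF1A the ratio was 0.433, and 0.275 without untreated replicate 2. For TNFRSF10B it was 0.665, and 0.343 without untreated replicate 2, but 1.29 without untreated replicate 1 and 1.2 at the main start, since its best peak in TNFα replicate 2 lay at another start. The BIRC3 peak measured 1190 and 326 bp in untreated, 986 and 1091 bp in cobimetinib and 1468 and 1567 bp in TNFα libraries, with both TNFα widths above the other 4. The best TRAF2 peak, mostly at the internal start, measured 1234 and 371, 855 and 742, and 1834 and 1912 bp in the same order. At the TRAF2 main start the widths were 827 and 359, 461 and 742, and 508 and 449 bp, a TNFα to untreated ratio of 0.877.

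**Figure D3:**
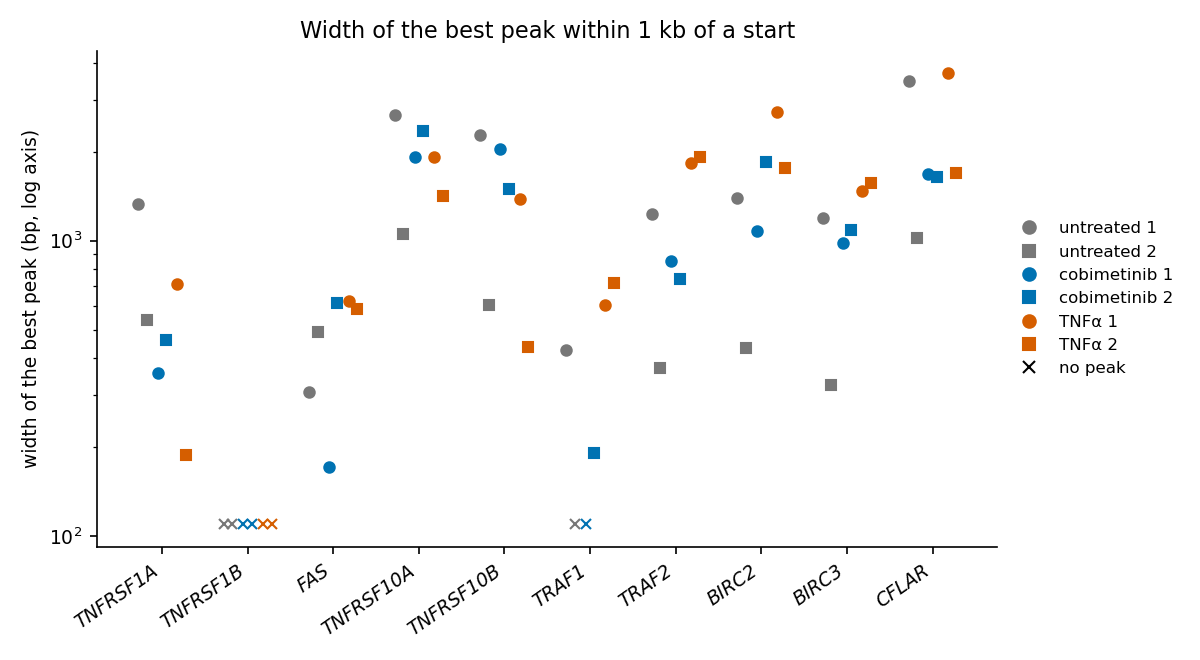
Width in bp of the best peak within 1 kb of a start (log axis) for each member, one point per library as in the plot of ranks; crosses, at an arbitrary height, mark no peak. At the peaks plotted, BIRC3 and TRAF2 are widest in both TNFα libraries, and untreated replicate 2 has the narrowest peak of all libraries at 5 of its 8 marked members.

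Around the members, the 20000 highest peaks of each library were merged into 38598 regions. Of these, 59 lay within 50 kb of a member start, 4 of them counted for 2 members, and 33 had a peak in all 6 libraries. A further 6 of the 59 were seen in 1 library only (5 of these in untreated replicate 2) and were not tested. None of the 53 tested passed in any comparison. Among all 31418 regions tested 0.0605% passed for cobimetinib against untreated, 0.0191% for TNFα against untreated and 1.09% for TNFα against cobimetinib, and for the last comparison 9 of the 53 were at an unadjusted p under 0.05, beside 17.5% of all regions. The members' regions had medians of -0.02, 0.06 and 0.05 in these comparisons, beside -0.17, -0.27 and -0.13 over all regions.

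Of the member regions 4 had a peak in both TNFα libraries and in neither cobimetinib library, a pattern seen in 4.21% of all regions tested, and 2 had the reverse, seen in 3.86%. Of these, 3 lay at or inside a member. A region inside an intron of TNFRSF10B (chr8:23064460-23065809) ranked 15047.5 and 10894 after TNFα. In the first untreated replicate it ranked 50264.5, and the remaining 3 libraries had no peak there. A region inside an intron of TNFRSF10A (chr8:23217954-23219103) ranked 13739 and 12781 after TNFα and 54939 and 45067.5 in untreated cells, with none after cobimetinib.

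The third was the TRAF1 main start itself (chr9:120926140-120926857), marked after TNFα only. It reaches from -61 to 656 bp from that start. The fourth, an intergenic 338-bp stretch near TNFRSF10A (chr8:23175060-23175397), ranked 78037.5 and 19263 after TNFα, with no other peak.

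Against cobimetinib the TNFRSF10A intron came to 2.69 ± 0.86. The TNFRSF10B intron came to 2.74 and the TRAF1 start to 2.39. The largest difference the other way was an intergenic region near TRAF2 (chr9:136964302-136964958; -2.64), whose nearest start is PTGDS. It ranked 14678.5 and 19222.5 after cobimetinib and 20160 in untreated replicate 1, with no peak in the remaining libraries. The regions at TNFRSF10B, TRAF1 and TRAF2 are among 6 of the 53 that would have missed the filter of 2 libraries with a peak without 1 of the groups. They met it only through the group in which they are high, so their differences are a description and no p is given. The TNFRSF10A intron met the filter without TNFα, but only its TNFα peaks were among the highest peaks merged into regions. Its difference is therefore a description too. All these sizes depend on where a missing peak is placed, here at the end of the list.

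In fits that left out 1 library, the difference of the TNFRSF10A intron between TNFα and cobimetinib ran from 2.39 to 2.97.

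**Figure D4:**
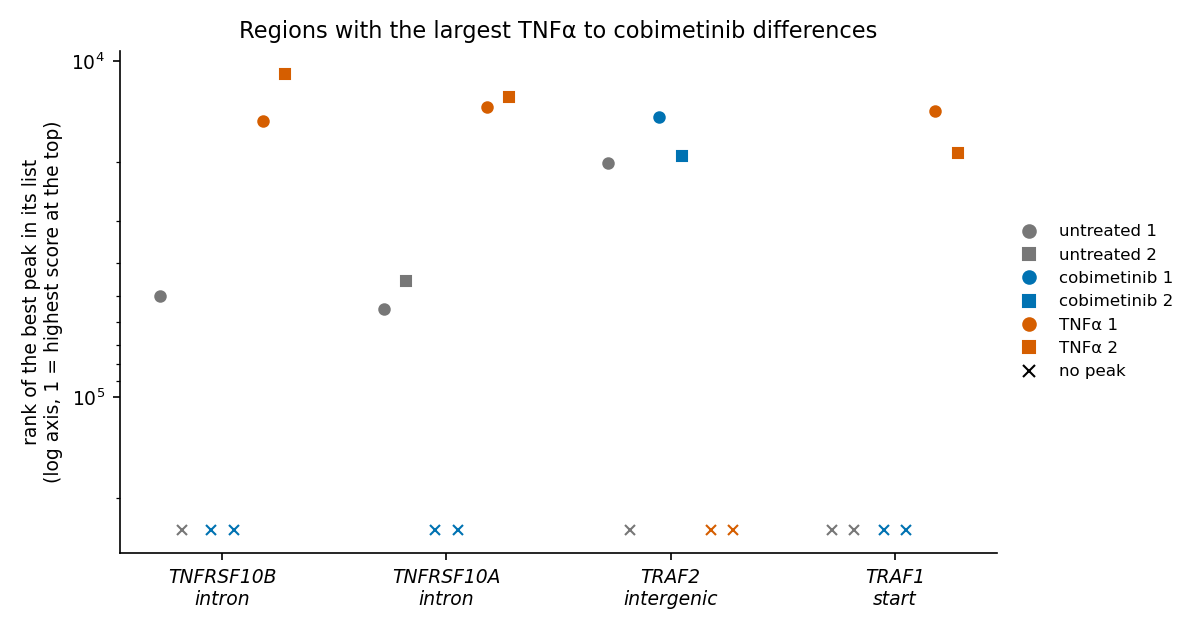
Rank (log axis, top of the list upwards) in each library for the 4 member regions with the largest difference between TNFα and cobimetinib. Crosses, at an arbitrary height, mark no peak: TRAF1 has points only for TNFα, both receptor introns have them at 10894 to 15047.5 after TNFα and none after cobimetinib, and the TRAF2 region shows the reverse.

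Each of the 3 regions at TNFRSF10B, TNFRSF10A and TRAF1 held both the AP1 word and the NF-κB consensus. Among 9877 tested regions of 718 to 1350 bp, the span of these 3, the AP1 word stood in 44.1%, the NF-κB consensus in 17.7% and both in 6.65%. The regions were looked at for their words after their ranks had been seen, so this is a description and no test was made. The fourth region marked after TNFα and not after cobimetinib, the shorter intergenic one near TNFRSF10A, held neither word. Of all 59 member regions 17 held the AP1 word, 20 the NF-κB consensus and 6 both.

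Marked starts of neighbouring genes also differed in rank around 2 of the receptors. At the start of RHOBTB2, within 50 kb of TNFRSF10B (chr8:22986601-22987707), ranks were 4036.5 and 2411 in untreated, 2320.5 and 3436 in cobimetinib and 10766.5 and 11269 in TNFα cells, with TNFα below the rest by -2.40 ± 0.88 against untreated (limma adjusted p = 0.427). The TNFRSF10B start was lower after TNFα too, while the intron 3212 bp inside it was higher. At the LTBR start, within 50 kb of TNFRSF1A (chr12:6383249-6385092), ranks were 2003 and 3457.5 in untreated, 8656 and 10331.5 in cobimetinib and 6098.5 and 12564 in TNFα cells.

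Near the remaining members, an intergenic region between CFLAR and CASP10 (chr2:201177042-201177693) ranked 20160 and 7788.5 in untreated, 29451.5 and 55658.5 in cobimetinib and 12979.5 and 8445.5 in TNFα cells, a difference of 1.94 ± 0.94 between the treatments (limma adjusted p = 0.296). TNFRSF1B had no promoter peak, but a region 6446 bp from its start (chr1:12159499-12160545) ranked 12221.5 and 26242 in untreated, 37131.5 in cobimetinib replicate 1 and 15973 and 32591 in TNFα cells, with no peak in cobimetinib replicate 2. Downstream of FAS (chr10:89031801-89033306) ranks were 21910 and 75834.5 in untreated, 25898 in cobimetinib replicate 1 and 19479.5 and 14481 in TNFα cells. TNFα stood nearer the top than cobimetinib by 1.15 ± 0.85 near TNFRSF1B (limma adjusted p = 0.544) and by 1.33 downstream of FAS. In each of these regions cobimetinib replicate 2 had no peak and was set to the end of its list. In the FAS region only the TNFα peaks were among the highest peaks merged into regions. The FAS difference is therefore a description, and no p is given. The best-ranked region near TRAF2 was the LCN12 start (chr9:136948045-136950964; mean rank 4515), near TRAF1 the PHF19 start (9464) and near TNFRSF1B the VPS13D start (16046). At PLEKHG6, in the window of TNFRSF1A (chr12:6310585-6311660), ranks were 18813.5 and 26242 in untreated and 11530 and 66550 in cobimetinib cells, and after TNFα 53016.5 in replicate 2 only.

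**Figure D5:**
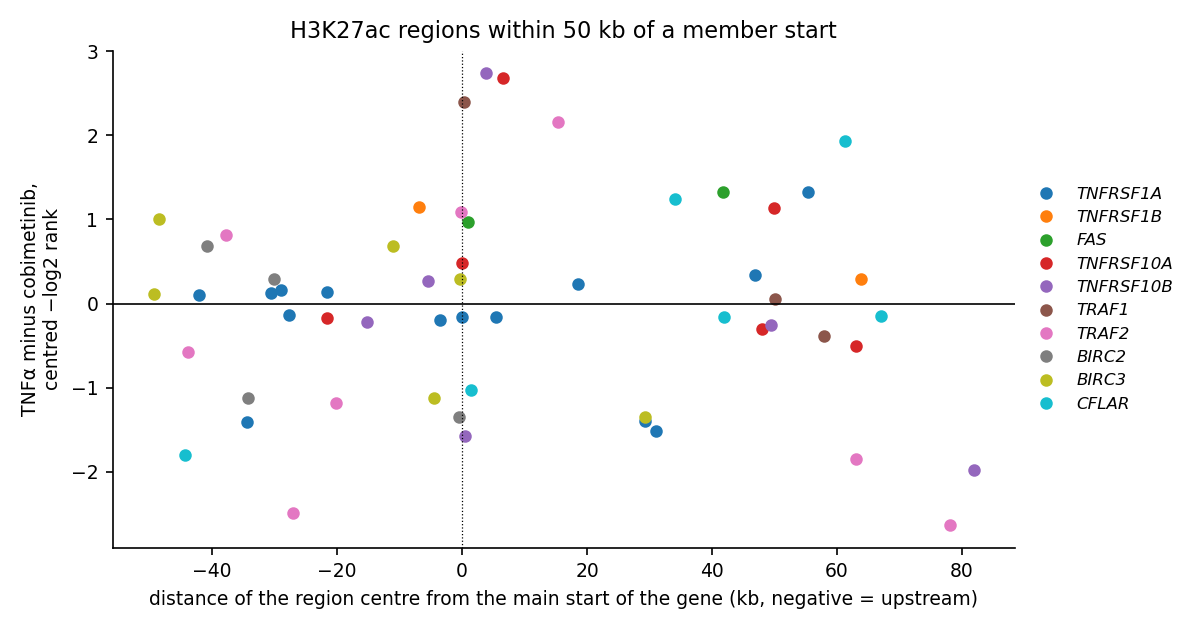
Difference in centred, sign-turned log2 rank between TNFα and cobimetinib (vertical axis) for the tested regions within 50 kb of any start of a member, against the distance of the region centre from the main start of that gene in kb. Values run to both sides of 0 at all distances; the highest are the TNFRSF10B and TNFRSF10A introns (2.74 and 2.69) and the TRAF1 start (2.39).

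Over all the 50-kb windows together, peaks made up a small and similar part of all peak bases of a list. This share was 0.157% and 0.12% in the untreated, 0.142% and 0.164% in the cobimetinib and 0.145% and 0.16% in the TNFα libraries. The groups overlapped, so the share of the marked genome that lay around these genes did not separate the treatments.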

How the data were processed

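Per the study's methods and the submitters' notes, reads were trimmed, aligned to hg38 with BWA 0.7.15 and filtered on mapping quality, and the authors called peaks with MACS2 2.1.1 in each library separately, without the immunoglobulin G background, in paired-end and single-end mode, merging both lists and keeping the higher score. The deposited score in column 5 rises with depth, which is unknown, so only ranks within a list, widths and presence were used. Libraries were grouped by the labels. Starts came from GENCODE 44 (hg38; all chromosome names in the lists were found and no peak ran past a chromosome end). The best-scoring peak within 1 kb of any start was taken per gene, and 1 overlapping base was enough for a region. Ranks were tested with limma 3.58.1 in R 4.3.3 over promoters or regions with a peak in at least 2 libraries, and the steps were tested on simulated data. Motifs were searched with pysam 0.24.0. Members, the pathway list and the tests were chosen with earlier results of these data known. Named regions are, per member, the best mean rank and the largest TNFα to cobimetinib difference, and named pathway genes the 2 largest each way. Sequences are cut to the bases before the start, or 30 around a word. Alternatives covered centring, filters, windows, weights, starts and left-out libraries.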

Additional observations from a re-analysis of the deposited data

How the results depend on the processing

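Read depth is unknown and each group has 2 libraries, so 1 library can set a value, and a p-value that misses the threshold does not show that groups did not differ. Counts of promoters or regions passing were the least stable values, and the cause was not tested. For promoters, cobimetinib against untreated went from 0 to 4 with the replicate block, library weights or the MANE start alone, 3 with a peak in at least 1 library and 5 with a 500-bp window. TNFα against untreated went from 0 to 3 with the 500-bp window. TNFα against cobimetinib went from 2 to 4 with the replicate block or a peak in at least 1 library, 9 with the 500-bp window, 227 with library weights, and 0 without centring, with ranks among promoters tested, with a peak in all 6 libraries or with scores of 40 or more. For regions, cobimetinib against untreated went from 19 to 30 with the replicate block, 1 without centring or with scores of 40 or more, 11 with a peak in at least 1 library, 5 with library weights, and 0 with ranks among regions tested, 10000 peaks or peaks covering 50%. TNFα against untreated went from 6 to 12 without centring, 16 with a peak in at least 1 library, 1 with scores of 40 or more and 0 with peaks covering 50%. TNFα against cobimetinib went from 342 to 126 without centring, 180 with a peak in at least 1 library, 221 with scores of 40 or more, 3800 with library weights, 131 with 10000 peaks and 0 with peaks covering 50%. Leaving out 1 library gave 0 to 1445, 0 to 1129 and 0 to 107 promoters and 0 to 4581, 0 to 3735 and 8 to 2962 regions in the 3 comparisons, the highest without untreated replicate 1 except for 107 without untreated replicate 2; the library left alone in its group is assumed to vary like the others. Replicate numbers did not pair the libraries (correlations of same-numbered deviations from -0.017 to 0.115), and the block changed no member's call.

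Among members, 8 had a promoter peak in every library, 4 with scores of 40 or more and 3 among the 20000 highest peaks. The log2 width difference for cobimetinib against untreated, 0.24, ran from -0.38 (without untreated replicate 2) to 1.06. Among log2 widths for TNFα against untreated, compared after the data were seen, TRAF2 turned to -0.19 and TNFRSF10B to 0.27 at the MANE start; leaving out an untreated library gave -1.55 to 0.37 for TNFRSF10B. No member difference that changed sign had passed a test. Without centring TNFRSF1A came to -0.11 for TNFα against cobimetinib, CFLAR to 0.32 for TNFα against untreated, and TNFRSF10A, TNFRSF10B and TRAF1 to 0.044, 0.25 and 0.51 for cobimetinib against untreated. With ranks among promoters tested these were TNFRSF1A -0.032, CFLAR 0.60, TNFRSF10B 0.048 and TRAF1 0.018. With scores of 40 or more TNFRSF1A came to -0.089 and CFLAR to 0.21. With a peak in all 6 libraries TNFRSF10B came to 0.087 and CFLAR to 0.32. FAS, for TNFα against untreated, came to -0.034 with a peak in at least 1 library, -0.044 at the MANE start and -0.064 with the 500-bp window. At the MANE start TRAF2 came to 0.25 and CFLAR to 0.84 for cobimetinib against untreated, and CFLAR to -0.88 for TNFα against cobimetinib. Leaving out 1 library turned TNFRSF1A (-1.06 to 0.058), TNFRSF10B (-0.56 to 0.27) and TRAF1 (-0.63 to 0.86) for cobimetinib against untreated, FAS (-0.56 to 0.85), TNFRSF10A (-0.59 to 1.17) and CFLAR (-0.89 to 1.00) for TNFα against untreated, and TNFRSF1A (-0.51 to 0.58), TNFRSF10A (-0.25 to 1.51) and BIRC3 (-0.18 to 1.06) for TNFα against cobimetinib. All other promoter differences of the members kept their sign in every fit that left out a library. TNFRSF10B ran from -1.92 to -1.01 for TNFα against untreated and from -1.78 to -0.88 for TNFα against cobimetinib. BIRC2 for TNFα against untreated ran from 0.10 to 1.60. TRAF1 and the regions without a peak in every library gave no value with a peak in all 6 libraries, the TRAF1 region none without a TNFα library, and the regions absent from the shorter lists none with 10000 peaks.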
